A study of Citrus maxima and Citrus sinensis with 8 samples.

Results

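Roots of 2 citrus species that had never met added aluminum (Al) were compared: *C. grandis* (pummelo, cultivar Shatian pummelo), which is sensitive to Al, against *C. sinensis* (sweet orange, cultivar Xuegan), which tolerates it. The genes taken were those with a mean of at least 1 FPKM (fragments counted on a gene, divided by the length of its transcript and by the size of the library) in the control roots of either species, which gave 19324 of the 30151 genes in the files. Seedlings of both species grew in sand and got an acid nutrient solution daily for the last 18 weeks. The control seedlings got this acid solution with 0 mM Al. Each library was made from polyA RNA of the tips of new white roots, pooled from 5 seedlings, with 2 libraries per group, so the groups were *C. grandis* control roots (2 libraries) and *C. sinensis* control roots (2 libraries). Another 4 libraries, 2 per species, came from roots given 1 mM Al as AlCl3 (+Al). They served here to show which differences and values of 0 recurred and which differences changed with Al. An alternative fit also took all 8 libraries. Each species was represented by 1 cultivar, so species and cultivar cannot be told apart. The p-values below measure the spread between pools of seedlings. Where 1 library is left out, its species has 1 library, which is assumed to vary like the pair of the other species and genes of like level.

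Pummelo is one of the ancestral citrus species, and sweet orange descends from crosses of pummelo with mandarin, so part of the sweet orange genome is of pummelo origin. The root tip takes up nitrate, ammonium, phosphate and water, builds new primary walls and, further back, lignified xylem, and makes many phenolic and terpenoid compounds. Gene families of defense and secondary metabolism often lie in tandem copies in plant genomes, and such copies differ between related species. Reads of both species were mapped to the *C. sinensis* genome. The paper reports a lower share of mapped reads in the *C. grandis* than in the *C. sinensis* libraries. A *C. grandis* read had to match that genome to be counted, so for any gene lower in *C. grandis* a lower transcript level and a poorer match cannot be told apart. In pooled tissue, fewer cells of a type and less RNA per cell cannot be told apart either.

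The files gave no read counts, and the sums of FPKM were 859570 and 830396 in *C. grandis* and 812759 and 828354 in *C. sinensis*. Relative to *C. sinensis* library 1, depth estimated from low FPKM values was 0.807 and 0.873 in the *C. grandis* libraries and 0.968 in *C. sinensis* library 2. Over the 18660 genes tested, libraries of 1 species correlated at Spearman's rho of 0.984 in *C. grandis* and 0.988 in *C. sinensis*, and libraries of different species at 0.909 to 0.911. A difference of at least 2-fold separated 4.15% of genes between the *C. grandis* libraries and 2.49% between the *C. sinensis* libraries, against 18.4 to 20.7% between a *C. grandis* and a *C. sinensis* library. The median log2 difference of *C. grandis* library 1 minus library 2 was 0.14. Against *C. sinensis* libraries 1 and 2, the medians were 0.02 and -0.004 for *C. grandis* library 1 and -0.14 and -0.16 for *C. grandis* library 2. Genes of the dividing root tip (cyclins, kinesins, replication licensing factors and meristem regulators) were present in both species. They mark the tissue that the paper's methods describe, while the sample labels name only root. Their summed levels were 777 and 658 FPKM in *C. grandis* and 738 and 756 FPKM in *C. sinensis*, with 2 higher and 3 lower of 67 tested (7.46%, beside 15.7% of all genes). Their median difference was -0.38 on the log2 scale, with 17 of 67 above 0, against a median of -0.07 over all genes. Endodermis, root cap and root hair genes had a median of -0.35, with 3 of 11 above 0, and summed to 223 and 199 FPKM in *C. grandis* and 296 and 294 FPKM in *C. sinensis*. The part of these tissue markers in the results below was not tested. Another 3 genes of the dividing root tip list were at 0 in both *C. grandis* libraries and none in both *C. sinensis* libraries. Photosynthesis genes, markers of green tissue, had 5 higher and 1 lower of 25 tested (24%, beside 15.7% of all genes), and 1 more was at 0 in both *C. grandis* libraries. The group summed to 417 and 369 FPKM in *C. grandis* and 318 and 334 FPKM in *C. sinensis*.

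Control roots of the species differed at 2934 of 18660 genes, or 15.7% of those tested, at an adjusted p of at most 0.05 (limma, Benjamini-Hochberg) and a difference of at least 1 on the log2(FPKM + 0.1) scale. Of these, 1227 (6.58%) were higher and 1707 (9.15%) lower in *C. grandis*. After rescaling the libraries by the median ratio, 1402 were higher and 1562 lower, so the size of the excess of lower genes depended on the scale of the libraries. The median difference over all genes tested was -0.07 on the log2 scale, with quartiles at -0.46 and 0.28. Differences of at least 4-fold were called for 396 genes higher and 600 genes lower in *C. grandis*, and of at least 16-fold for 55 higher and 141 lower. Some of these were near absence in 1 species: 41 genes called lower had under 0.5 FPKM in *C. grandis* and at least 10 FPKM in *C. sinensis*, against 15 genes called higher with the reverse pattern. Called shares were 20.5% among genes of 1 to 3 FPKM, 11.95% among those of 30 to 100 FPKM and 14.6% among those over 100 FPKM, the only class with more genes higher than lower. Among genes placed on a chromosome 14.5% were called, among unplaced genes 20.2%, and among transcripts assembled by the authors 35.5%. Another 475 genes were listed at 0 in both *C. grandis* libraries and 189 in both *C. sinensis* libraries, and these are described apart.

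**Figure D1:**
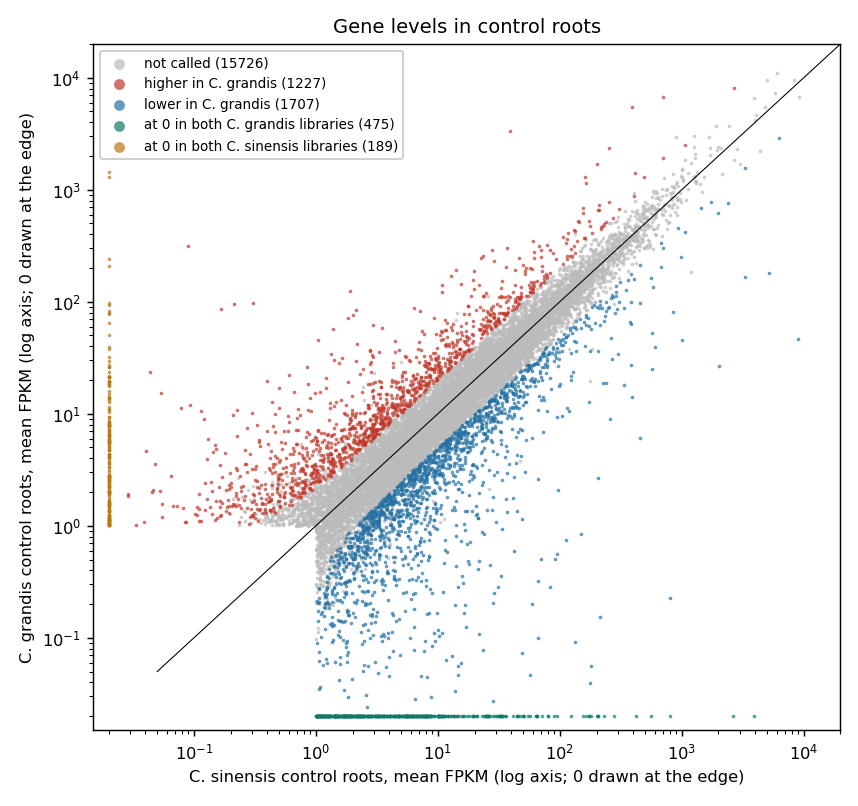
Mean FPKM of each gene in *C. grandis* control roots (vertical, log axis) against *C. sinensis* control roots (horizontal, log axis), with genes at 0 in 1 species drawn at the edge. The 1707 genes called lower in *C. grandis* and the 475 at 0 there outnumber the 1227 called higher and the 189 at 0 in *C. sinensis*.

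Families were grouped by keywords in the gene descriptions, which cover 50.2% of the genes tested, so a group can miss members. Nitrogen uptake and assimilation stood highest of the groups with at least 10 genes tested, with 17 of 30 genes called (56.7%, beside 15.7% of all genes). Phenylpropanoid and lignin enzymes (48.3%), germin-like proteins (44.4%), protease inhibitors (44.4%), flavonoid enzymes (42.0%), class III peroxidases (40.5%) and cytochrome P450 enzymes (39.0%) followed, with the small xylem marker group at 41.7%. Groups of basic cell functions had fewer called than all genes. Cytosolic ribosomal proteins had 8 of 138 genes called (5.80%), organic acid metabolism 1 of 26 (3.85%) and mitochondrial respiration 3 of 51 (5.88%). Among hormone groups, auxin genes had 3 of 63 called (4.76%), while ethylene and AP2/ERF genes had 29.4% and abscisic acid and dehydration genes 20.7%. Of all 18660 genes tested, 8905 had an unadjusted p of at most 0.05 (limma). None of 22 proteasome subunits was called by limma, with 7 at an unadjusted p of at most 0.05. The same held for 29 genes matched by the words actin, tubulin or polyubiquitin, with 14 at an unadjusted p of at most 0.05. That match missed Cs4g11930, described as polyubuquitin 10, which was called lower with 0 and 0.112 FPKM in *C. grandis* and 179 and 180.1 FPKM in *C. sinensis* (log2 -10.27 ± 0.36 SE, adjusted p = 8.20e-05, limma).

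**Figure D2:**
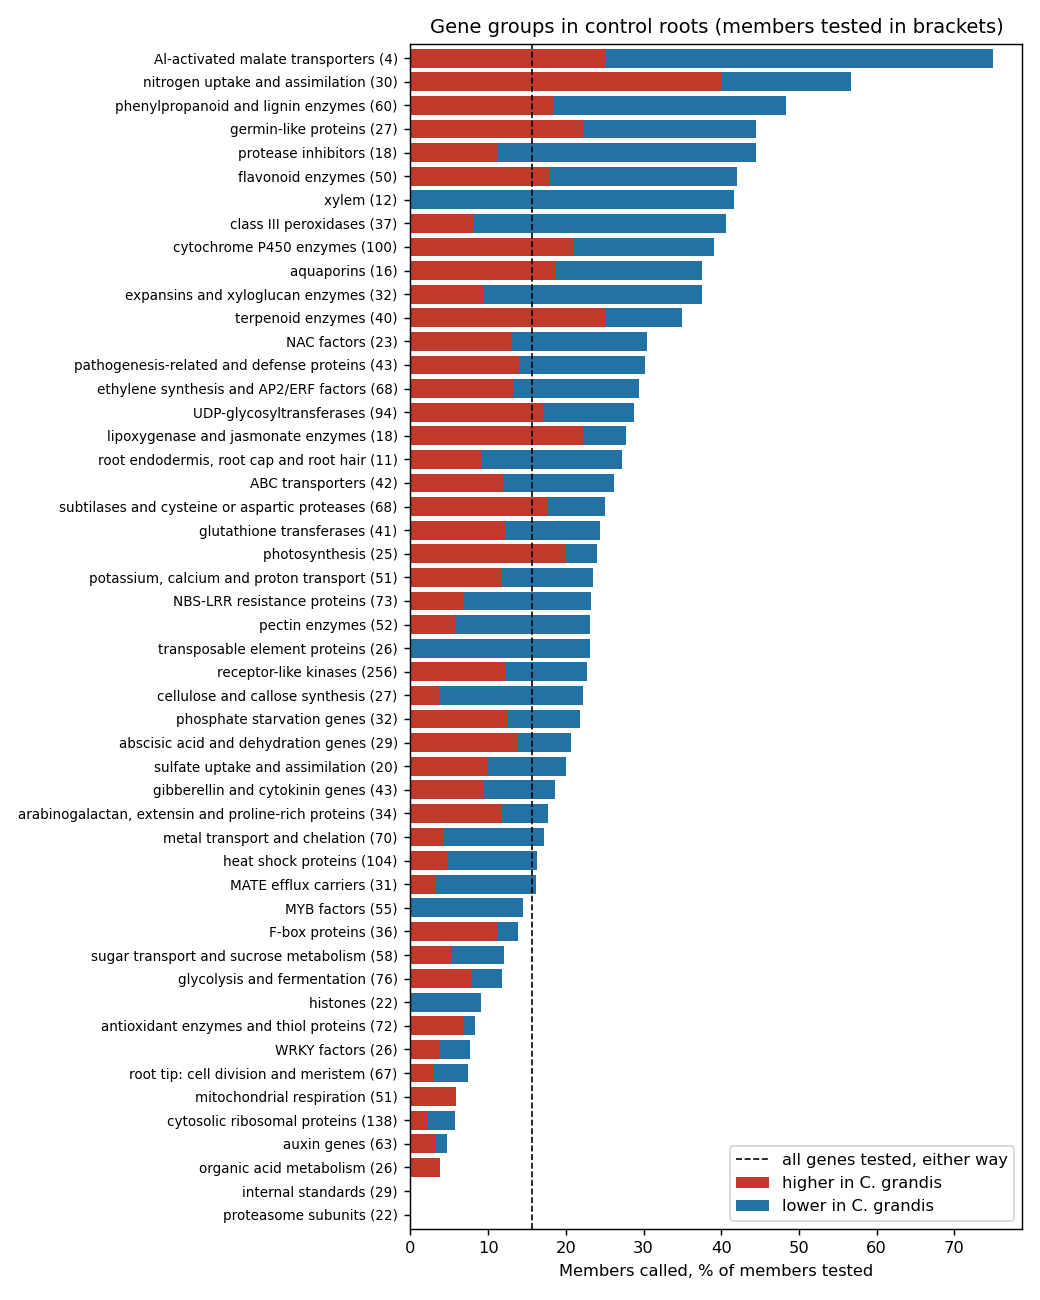
Share of tested members of each gene group called higher (red) or lower (blue) in *C. grandis* control roots, with the number tested in brackets and the share of all genes (15.7%) as a dashed line. Nitrogen genes reach 56.7%, while ribosomal proteins reach 5.80% and auxin genes 4.76%.

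Nitrate is taken up by transporters, reduced to nitrite and then to ammonium, and ammonium from this route or from the soil is built into glutamine and glutamate. Genes for every step of this route were higher in *C. grandis*: 12 of the 30 tested were higher and 5 lower, and the summed level of the group was 1500 and 1676 FPKM in *C. grandis* and 685 and 705 FPKM in *C. sinensis*. The median of the group was nevertheless -0.14, with 14 of the 30 above 0. The count of lower genes was 3 without *C. sinensis* library 2, and also with a pseudocount of 1.

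Among the transporters, the nitrate transporter Cs8g16010 had 258 and 320.1 FPKM in *C. grandis* and 66.4 and 73.3 FPKM in *C. sinensis*. Both *C. grandis* libraries were far above both *C. sinensis* libraries (log2 2.04 ± 0.12 SE, adjusted p = 0.000333, limma). Nitrate transporter 2.4 (orange1.1t02415), a high-affinity carrier in *Arabidopsis*, had 25.6 and 26.6 FPKM in *C. grandis* and 7.66 and 8.504 FPKM in *C. sinensis*. The nitrate transporter Cs5g04330 went the other way, with 11.7 and 12.3 FPKM in *C. grandis* and 27.6 and 31.4 FPKM in *C. sinensis*, and so did nitrate transporter 1.7 (Cs7g04490), with 9.14 and 8.79 FPKM in *C. grandis* and 21.2 and 21.3 FPKM in *C. sinensis*. Nitrate transporter 1:2 (Cs7g04390) was low and just past the limit, with 0.992 and 1.73 FPKM in *C. grandis* and 2.97 and 2.96 FPKM in *C. sinensis*, and its call was lost without *C. grandis* library 1 (log2 -0.75), without either *C. sinensis* library, with rescaling (adjusted p 0.0603, limma) and with no filter, other pseudocounts or the replicate block. Ammonium transporters followed the first pattern in 5 of the 6 that were called. Ammonium transporter 3 member 1-like (Cs7g04990) was the most abundant, with 143 and 161 FPKM in *C. grandis* and 32.1 and 34.9 FPKM in *C. sinensis* (log2 2.18 ± 0.09 SE, adjusted p = 0.000132, limma). Among those annotated as ammonium transporter 2, orange1.1t01808 had 12.6 and 15.1 FPKM in *C. grandis* and 0.761 and 1.02 FPKM in *C. sinensis*, and Cs5g30580 had 40.6 and 50.2 FPKM in *C. grandis* and 14.9 and 13.8 FPKM in *C. sinensis*. No *C. grandis* value of these transporters overlapped a *C. sinensis* value, which is no added support, since they were called on the same values. One more gene of that annotation, Cs3g10730, was low in both species and lower in *C. grandis*, with 0.167 and 0.252 FPKM in *C. grandis* and 1.18 and 1.31 FPKM in *C. sinensis*; its call was lost without either *C. sinensis* library (adjusted p 0.0886 and 0.107, limma).

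The main enzymes downstream were higher as well. Nitrate reductase 2 (Cs3g19060), which makes nitrite, had 397 and 483 FPKM in *C. grandis* and 131 and 130.5 FPKM in *C. sinensis* (log2 1.74 ± 0.10 SE, adjusted p = 0.000333, limma). Nitrite reductase (Cs8g05970), which makes ammonium in plastids, had 189 and 186 FPKM in *C. grandis* and 70.3 and 72.3 FPKM in *C. sinensis*. Glutamine synthetase 2 (Cs9g05680), the plastid form that fixes ammonium into glutamine, had 38.9 and 36.9 FPKM in *C. grandis* and 15.8 and 14.8 FPKM in *C. sinensis*. All 3 were called higher in *C. grandis*. NADH-dependent glutamate synthase 1 (Cs9g17990), which turns glutamine into glutamate, had 86.9 and 81.2 FPKM in *C. grandis* and 26.5 and 27.9 FPKM in *C. sinensis* (log2 1.62 ± 0.08 SE, adjusted p = 0.000218, limma). Lower instead was the nitrate reductase cofactor gene orange1.1t00503, with 3.35 and 2.496 FPKM in *C. grandis* and 9.26 and 10.2 FPKM in *C. sinensis*.

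**Figure D3:**
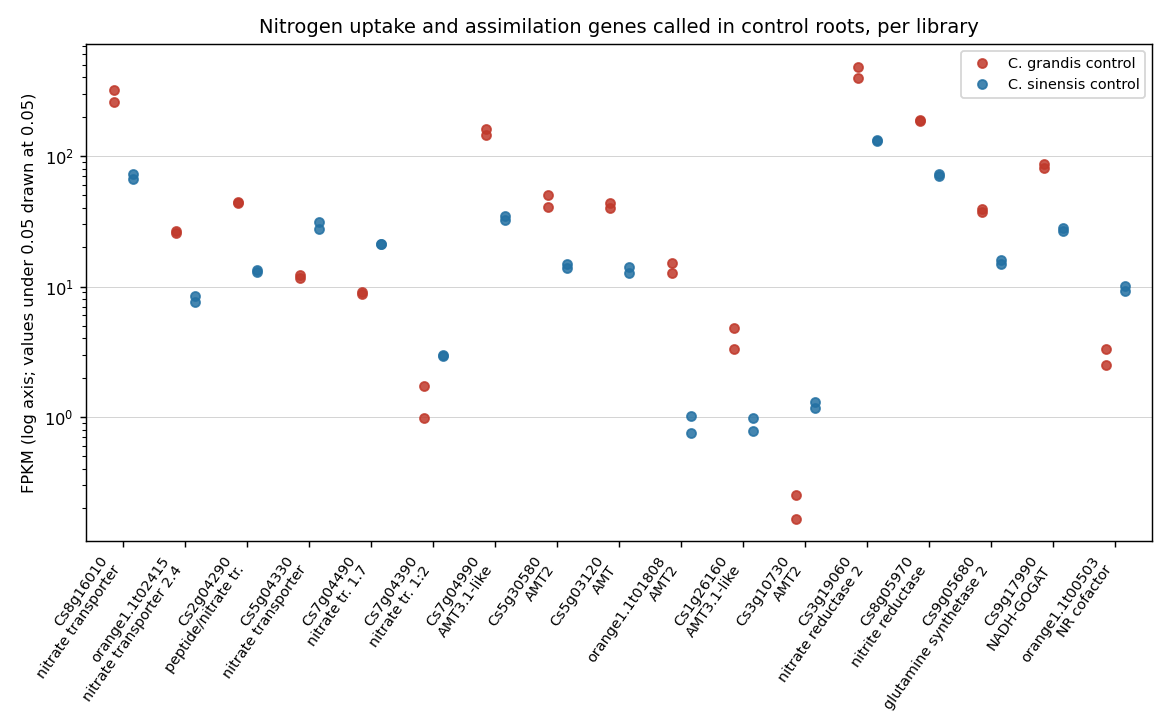
FPKM per library (log axis) of the 17 called nitrogen genes in *C. grandis* (red, left) and *C. sinensis* (blue, right) control roots, transporters first and enzymes last. The *C. grandis* points lie above the *C. sinensis* points in 12 genes and below them in 5: Cs5g04330, Cs7g04490, Cs7g04390, Cs3g10730 and orange1.1t00503.

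Other mineral and water transport genes were mixed. Phosphate starvation genes had 4 higher and 3 lower of 32 tested (21.9%, beside 15.7% of all genes). Secreted purple acid phosphatases release phosphate from organic compounds. Of these, Cs7g02530 had 17.2 and 12.7 FPKM in *C. grandis* and 3.05 and 3.599 FPKM in *C. sinensis*, and orange1.1t02445 had 10.6 and 9.79 FPKM in *C. grandis* and 2.51 and 1.74 FPKM in *C. sinensis*, while purple acid phosphatase 17 (orange1.1t02668) was listed at 0 in both *C. grandis* libraries against 5.02 and 8.18 FPKM in *C. sinensis*. A glycerophosphodiester phosphodiesterase (Cs7g02950), an enzyme of phospholipid turnover, was lower, with 3.85 and 3.11 FPKM in *C. grandis* and 21.3 and 24.8 FPKM in *C. sinensis*. Sulfate transporter 1,3 (Cs3g18650) was higher, with 75.3 and 71.5 FPKM in *C. grandis* and 27.01 and 30.4 FPKM in *C. sinensis*. Aquaporins, which pass water and small solutes, had 3 higher and 3 lower of 16 (37.5%). The tonoplast aquaporin TIP4-1-like (Cs4g19580) had 248 and 299.8 FPKM in *C. grandis* and 88.9 and 88.6 FPKM in *C. sinensis*, and NIP2-1-like (Cs6g21290), of a subfamily known for silicon and boron transport in other plants, had 26.5 and 21.7 FPKM in *C. grandis* and 65.6 and 72.3 FPKM in *C. sinensis*.

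Al tolerance in many plants rests on release of malate or citrate from the root tip, through Al-activated malate transporters (ALMT) and carriers of the multidrug and toxic compound extrusion (MATE) family. Before any Al was given, levels of these genes differed in both directions. Of 9 ALMT genes in the files 4 were tested, with 1 higher and 2 lower in *C. grandis*. ALMT10 (Cs5g01700) had 9.56 and 9.29 FPKM in *C. grandis* and 22.3 and 19.02 FPKM in *C. sinensis*, lower in *C. grandis* (log2 -1.12 ± 0.12 SE, adjusted p = 0.00205, limma). ALMT2 (Cs6g12800) was low and higher in *C. grandis*, with 5.78 and 3.77 FPKM in *C. grandis* and 1.56 and 1.38 FPKM in *C. sinensis*, while Cs6g12790 had 0.726 and 0.276 FPKM in *C. grandis* and 1.62 and 1.94 FPKM in *C. sinensis*, a call that was lost without *C. grandis* library 2 (adjusted p 0.0509, limma) and without either *C. sinensis* library (adjusted p 0.0817 and 0.135). Cs5g31410 had 2.48 and 1.97 FPKM in *C. grandis* and 1.43 and 1.02 FPKM in *C. sinensis*, which was not called (log2 0.82 ± 0.31 SE, adjusted p = 0.0895, limma).

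MATE carriers had 1 higher and 4 lower of 31 tested, a share (16.1%) like that of all genes. Ferric reductase defective 3b (Cs7g01770), whose *Arabidopsis* relative loads citrate into the xylem, had 38.4 and 34.5 FPKM in *C. grandis* and 26.1 and 25.1 FPKM in *C. sinensis*, a difference below the limit of 1 (log2 0.51 ± 0.09 SE, adjusted p = 0.0109, limma). Also below that limit, Cs3g16650 had 31.2 and 30.95 FPKM in *C. grandis* and 19.4 and 20.6 FPKM in *C. sinensis* (log2 0.63 ± 0.09 SE, adjusted p = 0.0044). The MATE carrier Cs2g30280 was called higher, with 96.7 and 72.3 FPKM in *C. grandis* and 31.7 and 15.4 FPKM in *C. sinensis*, and Cs7g16290 was called lower, with 1.35 and 1.14 FPKM in *C. grandis* and 14.9 and 25.99 FPKM in *C. sinensis*. The replicates of Cs2g30280 and Cs7g16290 in *C. sinensis* were wide apart. They did not reach the *C. grandis* values, which is no added support, since both genes were called on the same values.

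Metal transport and chelation genes had 3 higher and 9 lower of 70 tested, a share (17.1%) near that of all genes (15.7%), so the genes below are single cases. Metallothioneins are small proteins that bind metals, and Cs1g07330 had 684 and 557 FPKM in *C. grandis* and 1647 and 2280.5 FPKM in *C. sinensis* (log2 -1.65 ± 0.18 SE, adjusted p = 0.00176, limma). A second one, Cs8g18470, among the most abundant transcripts of both species, had 6838 and 6534 FPKM in *C. grandis* and 8828 and 9485 FPKM in *C. sinensis*, a difference below the limit (log2 -0.45 ± 0.07 SE). Zinc transporter 10 (Cs2g10720) had 40.2 and 47.6 FPKM in *C. grandis* and 139 and 134 FPKM in *C. sinensis*. A protein of the heavy metal transport/detoxification family (Cs4g16810) was lower, with 12.3 and 8.84 FPKM in *C. grandis* and 113 and 126 FPKM in *C. sinensis* (log2 -3.50 ± 0.17 SE, adjusted p = 0.000195, limma). The Nramp transporter Cs3g19960, of a family that carries divalent metals, had 85.8 and 86.5 FPKM in *C. grandis* and 40.6 and 43.8 FPKM in *C. sinensis*, just past the limit, and its difference was 0.98 on the log2 scale without *C. sinensis* library 1. The Nramp6 gene XLOC_029822 had 19.5 and 17.3 FPKM in *C. grandis* and 24.3 and 23.9 FPKM in *C. sinensis* and was not called (log2 -0.39 ± 0.10 SE).

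The phenylpropanoid route starts from phenylalanine and leads to lignin, the phenolic polymer of xylem walls, and to flavonoids. Of 60 phenylpropanoid and lignin genes tested, 11 were higher and 18 lower in *C. grandis*, with a median difference of -0.65, against -0.07 for all genes. Phenylalanine ammonia-lyase (Cs8g16290), the entry enzyme, had 28.3 and 24.1 FPKM in *C. grandis* and 80.3 and 76.98 FPKM in *C. sinensis* (log2 -1.59 ± 0.10 SE, adjusted p = 0.000411, limma). Cinnamate 4-hydroxylase (Cs4g04530), the next enzyme, was less abundant and went the other way, with 21.4 and 19.6 FPKM in *C. grandis* and 7.08 and 5.83 FPKM in *C. sinensis*. Laccases, which couple lignin monomers in the wall, were lower: laccase-4-like (Cs8g19850) had 5.33 and 5.68 FPKM in *C. grandis* and 14.3 and 14.7 FPKM in *C. sinensis*, and laccase-17 (Cs8g17630) had 2.74 and 2.78 FPKM in *C. grandis* and 5.26 and 6.21 FPKM in *C. sinensis*. The laccase-17 call was lost without *C. sinensis* library 2 (adjusted p 0.0887, limma), with rescaling and with a pseudocount of 1.

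Methyltransferases of this route differed widely between the species. Caffeic acid O-methyltransferases add methyl groups to lignin precursors. Of these, Cs5g25000 had 3.05 and 1.11 FPKM in *C. grandis* and 92.00 and 102 FPKM in *C. sinensis*, and its neighbour Cs5g25010 had 1.28 and 1.02 FPKM in *C. grandis* and 49.97 and 47.4 FPKM in *C. sinensis* (log2 -5.29 ± 0.16 SE, adjusted p = 5.00e-05, limma). In both genes the *C. grandis* libraries were low and far below the *C. sinensis* libraries. A member with an unplaced ID, orange1.1t02085, was the reverse, with 73.1 and 69.9 FPKM in *C. grandis* and 1.35 and 2.31 FPKM in *C. sinensis* (log2 5.26 ± 0.25 SE, adjusted p = 0.000187, limma). Such copies can share reads, so the value of each is less certain than its error shows. A caffeoyl-CoA O-methyltransferase (Cs1g12660) was listed at 0 in both *C. grandis* libraries against 8.60 and 13.7 FPKM in *C. sinensis*.

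Xylem markers moved with the lignin genes. Of the 20 genes of that marker list 12 were tested, 5 were lower and none higher in *C. grandis*, with a median of -0.84, and none was at 0 in both libraries of a species. Laccase-4-like and laccase-17 are on both lists, and the other calls were laccase 11 (Cs1g24250), whose call was lost without either *C. sinensis* library, and 2 xylem cysteine peptidases, among them Cs3g27650 with 2.297 and 1.86 FPKM in *C. grandis* and 5.76 and 5.17 FPKM in *C. sinensis*. The summed levels of the xylem list overlapped between the species, at 708 and 634 FPKM in *C. grandis* and 681 and 717 FPKM in *C. sinensis*. The count of lower xylem genes was 3 without *C. sinensis* library 1 and 2 without *C. sinensis* library 2. The part of xylem in the lignin difference was not tested.

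Flavonoid enzymes had 9 higher and 12 lower of 50 tested. A chalcone and stilbene synthase family gene (Cs8g09830), of the family that opens the flavonoid route, had 71.8 and 72.04 FPKM in *C. grandis* and 171 and 169 FPKM in *C. sinensis*. Flavonoid 3'-monooxygenase (orange1.1t04983), which hydroxylates the B ring, had 25.8 and 26.8 FPKM in *C. grandis* and 71.2 and 77.1 FPKM in *C. sinensis*, and a flavonol 3-O-glucosyltransferase (Cs5g24820) had 6.25 and 7.56 FPKM in *C. grandis* and 44.5 and 47.1 FPKM in *C. sinensis*. All 3 were lower in *C. grandis*. The flavonoid O-methyltransferase Cs2g05400 was nearly absent from *C. grandis*, with 0.359 and 0.205 FPKM in *C. grandis* and 81.1 and 86.2 FPKM in *C. sinensis* (log2 -7.80 ± 0.23 SE, adjusted p = 4.68e-05, limma). Its neighbours shared that pattern: Cs2g05410 had 0 and 0.506 FPKM in *C. grandis* and 30.5 and 26.99 FPKM in *C. sinensis*, and the isoflavone-7-O-methyltransferase Cs2g05420 was listed at 0 in both *C. grandis* libraries against 11.4 and 13.1 FPKM in *C. sinensis*.

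Cytochrome P450 enzymes, monooxygenases that decorate many plant compounds, had 21 higher and 18 lower of 100 tested. The P450 gene orange1.1t02083 was at the edge of detection in *C. grandis*, with 0 and 0.0787 FPKM in *C. grandis* and 180.4 and 170.0 FPKM in *C. sinensis* (log2 -10.36 ± 0.30 SE, adjusted p = 4.28e-05, limma). Numbered close to it, the P450 gene orange1.1t02087 was the reverse, with 199.6 and 181 FPKM in *C. grandis* and 12.7 and 15.7 FPKM in *C. sinensis*. The adjacent genes Cs5g06310 and Cs5g06320, both annotated as P450 71A1, also went in opposite directions. Cs5g06310 had 142 and 138 FPKM in *C. grandis* and 11.2 and 10.4 FPKM in *C. sinensis*, and Cs5g06320 had 3.28 and 2.51 FPKM in *C. grandis* and 10.1 and 10.8 FPKM in *C. sinensis*. Terpenoid enzymes had 10 higher and 4 lower of 40 (35.0%), with a median of 0.35 and 23 of 40 above 0. Against the direction of most of these calls, the 3 neighbouring terpene synthase 1 genes, whose products are volatile hydrocarbons, were all lower. Cs5g12880 among them had 2.21 and 2.03 FPKM in *C. grandis* and 13.4 and 16.2 FPKM in *C. sinensis*.

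In the groups of wall enzymes more genes were called lower than higher in *C. grandis*, and a majority was not called. Class III peroxidases, secreted enzymes that oxidize phenolics and cross-link walls, had 3 higher and 12 lower of 37 tested, with a median of -0.60. The peroxidase orange1.1t02036 had 46.5 and 47.7 FPKM in *C. grandis* and 267 and 262 FPKM in *C. sinensis* (log2 -2.49 ± 0.06 SE, adjusted p = 3.40e-05, limma), and pericarp peroxidase 3 (Cs1g24640) had 44.7 and 45.5 FPKM in *C. grandis* and 103 and 101 FPKM in *C. sinensis*. One of the 3 that were higher, orange1.1t04469, had 58.6 and 56.02 FPKM in *C. grandis* and 1.32 and 1.45 FPKM in *C. sinensis* (log2 5.28 ± 0.13 SE, adjusted p = 3.27e-05, limma). Class III peroxidase 70 (orange1.1t01747) was listed at 0 in both *C. sinensis* libraries against 5.12 and 4.76 FPKM in *C. grandis*. Despite the 12 lower genes, the summed level of the peroxidases was 5554 and 5587 FPKM in *C. grandis* and 5467 and 5276 FPKM in *C. sinensis*.

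Expansins and xyloglucan enzymes, which loosen and rejoin the polysaccharides of growing walls, had 3 higher and 9 lower of 32 tested (37.5%), with a median of -0.64. Xyloglucan endotransglucosylase/hydrolase Cs4g03200 had 115 and 99.1 FPKM in *C. grandis* and 255 and 269 FPKM in *C. sinensis*, and Cs4g03060 had 29.4 and 23.7 FPKM in *C. grandis* and 101 and 93.2 FPKM in *C. sinensis*. Expansin-like B1 (Cs5g07854) had 66.9 and 61.2 FPKM in *C. grandis* and 198 and 191 FPKM in *C. sinensis*. Alpha-expansin 1 (Cs5g26290) was higher instead, with 140.4 and 137 FPKM in *C. grandis* and 65.2 and 56.8 FPKM in *C. sinensis*. Among cellulose synthases, A4 (Cs5g29200), the relative of an *Arabidopsis* subunit of secondary walls, had 10.3 and 9.74 FPKM in *C. grandis* and 30.3 and 31.1 FPKM in *C. sinensis* (log2 -1.61 ± 0.10 SE, adjusted p = 0.000366, limma). Cellulose synthase A1 (Cs2g04590), of the primary wall type in *Arabidopsis*, had 10.6 and 10.1 FPKM in *C. grandis* and 27.2 and 27.6 FPKM in *C. sinensis*. A COBRA-like protein (orange1.1t05508), of a family of membrane-anchored proteins needed for cellulose deposition, had 21.8 and 17.4 FPKM in *C. grandis* and 70.00 and 62.04 FPKM in *C. sinensis*. Cellulose and callose synthesis genes together had 1 higher and 5 lower of 27 (22.2%). Arabinogalactan, extensin and proline-rich proteins of the wall had 4 higher and 2 lower of 34 (17.6%). Pectin enzymes had 3 higher and 9 lower of 52 (23.1%), with a median of -0.43, among them the pectinesterase Cs4g06650 with 4.53 and 4.94 FPKM in *C. grandis* and 15.04 and 16.8 FPKM in *C. sinensis*.

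Germin-like proteins are secreted cupin proteins, some of which make hydrogen peroxide in the wall. They split evenly, with 6 higher and 6 lower of 27 tested. Genes annotated as germin-like protein 9-3 made up 4 of the higher ones. The most abundant, XLOC_020823, had 378 and 448 FPKM in *C. grandis* and 115 and 119.7 FPKM in *C. sinensis*, and Cs5g07750 had 48.2 and 40.8 FPKM in *C. grandis* and 5.25 and 3.64 FPKM in *C. sinensis* (log2 3.31 ± 0.20 SE, adjusted p = 0.000353, limma). Germin-like protein subfamily T member 2 (Cs5g04550) was lower, with 23.3 and 20.02 FPKM in *C. grandis* and 111 and 136 FPKM in *C. sinensis*.

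Protease inhibitors, which guard plants against insects and microbes, held some of the most abundant species differences, with 2 higher and 6 lower of 18 tested. The trypsin inhibitor Cs9g08680 had 6331 and 4638 FPKM in *C. grandis* and 374 and 407 FPKM in *C. sinensis* (log2 3.79 ± 0.15 SE, adjusted p = 0.000117, limma). That gene alone made up most of the summed level of the group in *C. grandis*, which was 7515 and 5651 FPKM, against 1774 and 1756 FPKM in *C. sinensis*. Next to it by ID, the serine protease inhibitor Cs9g08670 was lower, with 52.1 and 48.7 FPKM in *C. grandis* and 123 and 109 FPKM in *C. sinensis*. Miraculin-like protein 2 (Cs5g16850), a Kunitz-type inhibitor relative, was close to absent from *C. grandis*, with 0.101 and 0.0977 FPKM in *C. grandis* and 67.2 and 65.3 FPKM in *C. sinensis* (log2 -8.38 ± 0.18 SE, adjusted p = 3.21e-05, limma). So was the cystatin-like Cs3g05800, an inhibitor of cysteine proteases, with 0.553 and 0.566 FPKM in *C. grandis* and 99.7 and 91.3 FPKM in *C. sinensis*. The count of higher inhibitors was 1 without *C. grandis* library 1 and 4 without *C. grandis* library 2.

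Pathogenesis-related and defense proteins had 6 higher and 7 lower of 43 tested (30.2%). Defensins, small antimicrobial peptides, were among the higher ones: XLOC_029963 had 1376 and 1235 FPKM in *C. grandis* and 155 and 166 FPKM in *C. sinensis* (log2 3.02 ± 0.08 SE, adjusted p = 3.40e-05, limma), and XLOC_021438 had 313 and 271 FPKM in *C. grandis* and 25.4 and 29.7 FPKM in *C. sinensis*. Acidic class II chitinases, which cut fungal chitin, were lower, and Cs8g01810 had 82.3 and 88.8 FPKM in *C. grandis* and 291 and 296 FPKM in *C. sinensis*. Resistance proteins of the NBS-LRR class, which sense pathogen effectors, had 5 higher and 12 lower of 73 (23.3%, beside 15.7% of all genes). Receptor-like kinases, the largest group, had 31 higher and 27 lower of 256 (22.7%).

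Genes of cell metabolism were seldom called, but a few differed widely. Peroxiredoxin-2B-like (Cs8g10680), which reduces peroxides, had 87.3 and 85.8 FPKM in *C. grandis* and 0.165 and 0.171 FPKM in *C. sinensis* (log2 8.34 ± 0.16 SE, adjusted p = 1.97e-05, limma). The other antioxidant and thiol genes were mostly not called, with 5 higher and 1 lower of 72 tested including this one (8.33%, beside 15.7% of all genes). A gene not called can still differ by less than the limit. The group summed to 10622 and 10416 FPKM in *C. grandis* and 8208 and 8403 FPKM in *C. sinensis*. Cytochrome c oxidase polypeptide Vc (orange1.1t01677), a subunit of respiratory complex IV, had 1892 and 1498 FPKM in *C. grandis* and 176 and 229.8 FPKM in *C. sinensis*. Alternative oxidase (Cs3g09720), which bypasses that complex, had 59.6 and 53.7 FPKM in *C. grandis* and 21.9 and 23.1 FPKM in *C. sinensis*. The 40S ribosomal protein S9-2-like gene Cs7g04020 was lower, with 62.9 and 68.2 FPKM in *C. grandis* and 379 and 367 FPKM in *C. sinensis*. Ribosomal proteins are often encoded by several near-identical copies, so the split of reads between them is uncertain.

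The largest differences among described genes of at least 10 FPKM included near absences in 1 species. A gene for citrus dioxygenase, Cs9g02910, had 319 and 311 FPKM in *C. grandis* and 0.0873 and 0.0906 FPKM in *C. sinensis* (log2 10.70 ± 0.13 SE, adjusted p = 8.52e-06, limma). Its neighbour of the same description, Cs9g02900, was far more abundant and lower in *C. grandis*, with 1568 and 1586 FPKM in *C. grandis* and 3364 and 3269.9 FPKM in *C. sinensis*. A sorbitol dehydrogenase-like gene (orange1.1t06022) had 96.7 and 92.5 FPKM in *C. grandis* and 0 and 0.428 FPKM in *C. sinensis*. On the other side, the lectin-related gene orange1.1t05126 had 0.0921 and 0.0898 FPKM in *C. grandis* and 136 and 131 FPKM in *C. sinensis*, and an ABC-2 type transporter (Cs2g30650), of a family of membrane pumps, had 0.0533 and 0.101 FPKM in *C. grandis* and 22.8 and 23.8 FPKM in *C. sinensis*. Among genes with no description, Cs1g04550 ranked with the most abundant transcripts of *C. sinensis* and not of *C. grandis*, with 47.6 and 44.6 FPKM in *C. grandis* and 8737 and 9269 FPKM in *C. sinensis* (log2 -7.61 ± 0.07 SE, adjusted p = 2.57e-06, limma). The undescribed orange1.1t05521 was the reverse, with 6116 and 7199.6 FPKM in *C. grandis* and 679 and 727 FPKM in *C. sinensis*.

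Adjacent genes were called in the same direction more often than in opposite directions. Of 11504 pairs of adjacent tested genes, 221 had both genes called in the same direction and 88 in opposite directions. Among the 269 adjacent pairs with the same description, both genes were called in 34, and in 8 of these 34 the directions were opposite, a share not above that of all adjacent pairs. These 8 include the dioxygenase and P450 71A1 pairs. In the pair of cinnamoyl CoA reductase-like genes, whose family makes lignin aldehydes, Cs2g30460 had 39.4 and 34.1 FPKM in *C. grandis* and 7.29 and 7.38 FPKM in *C. sinensis*, and Cs2g30470 had 1.502 and 1.602 FPKM in *C. grandis* and 5.04 and 5.599 FPKM in *C. sinensis*. Whether such copies share reads was not tested.

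Cyclic nucleotide-gated channels pass calcium and other cations into the cell, and chromosome 9 held a cluster of them by ID. Of 23 such genes there, 10 were below 1 FPKM in both species, 12 were tested, and 1, Cs9g18260, was listed at 0 in both *C. grandis* libraries against 20.4 and 21.7 FPKM in *C. sinensis*. Cs9g18180 was the reverse of that gene, with 24.9 and 22.1 FPKM in *C. grandis* and 0 and 0.0871 FPKM in *C. sinensis* (log2 7.43 ± 0.38 SE, adjusted p = 0.000226, limma). Cs9g18200 was also higher in *C. grandis*, with 1.69 and 2.17 FPKM in *C. grandis* and 0 and 0.0574 FPKM in *C. sinensis*. Cs9g18250 was lower, with 6.88 and 6.64 FPKM in *C. grandis* and 13.9 and 14.7 FPKM in *C. sinensis*, and Cs9g18390 was lower, with 3.56 and 3.06 FPKM in *C. grandis* and 12.4 and 12.4 FPKM in *C. sinensis*. In all, 3 of the 12 were called higher and 4 lower, and the calls of Cs9g18190 (higher), Cs9g18270 and Cs9g18280 (lower) were lost without *C. grandis* library 2, the last pair also with rescaling. The call of Cs9g18190 was also lost without each of the other 3 libraries, and that of Cs9g18280 without *C. sinensis* library 2. Genes Cs9g18340 to Cs9g18370 were not called, so called and uncalled members stood side by side in the cluster.

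**Figure D4:**
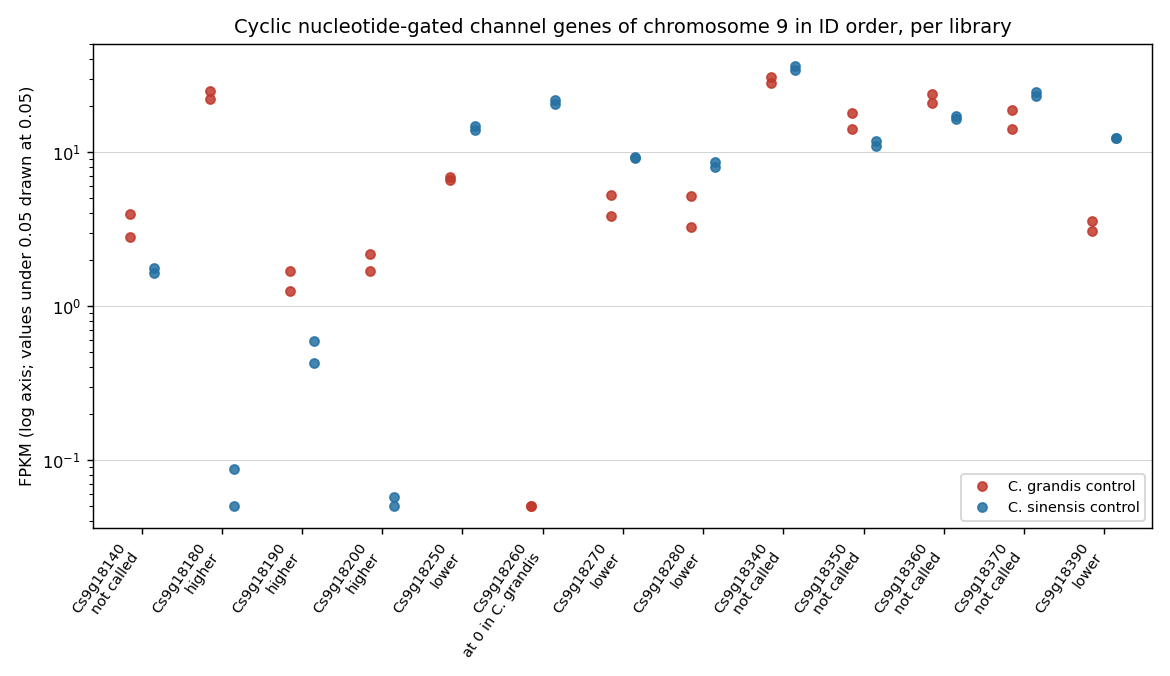
FPKM per library (log axis, values under 0.05 drawn at 0.05) of the 13 cyclic nucleotide-gated channel genes of chromosome 9 with at least 1 FPKM in either species, in ID order, *C. grandis* in red on the left and *C. sinensis* in blue on the right. Cs9g18180 and Cs9g18200 are near 0 in *C. sinensis*, and Cs9g18260 is at 0 in *C. grandis*.

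Genes listed at 0 in both *C. grandis* libraries numbered 475, with a median of 3.64 FPKM in *C. sinensis*. Of these, 410 were listed in both *C. sinensis* libraries, 104 averaged at least 10 FPKM there and 16 at least 100.0 FPKM. The reverse set, at 0 in both *C. sinensis* libraries, held 189 genes with a median of 3.80 FPKM in *C. grandis*, 44 of them at 10 FPKM or more and 5 at 100.0 or more. In the +Al libraries of the same species, 380 of the 475 (80.0%) were again at 0 in both, as were 103 of the 189 (54.5%). A fixed pattern, with 0 in all 4 libraries of 1 species and a value in all 4 of the other with a control mean of at least 10 FPKM, was met by 69 genes missing from *C. grandis* and 9 missing from *C. sinensis*. A description was given for 26.7% of the *C. grandis* set and 41.3% of the *C. sinensis* set. No fold is given for these genes, since a value of 0 may mean that no estimate was made, and genes that every cell uses were among them.

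The protein kinase gene orange1.1t05643 was such a case, listed at 0 in all 4 *C. grandis* libraries against 2574 and 2706 FPKM in *C. sinensis* control roots and 3146 and 2828 FPKM in its +Al roots. A ubiquitin gene (orange1.1t05622) was at 0 in *C. grandis* control roots against 276 and 283 FPKM in *C. sinensis*. A polyubiquitin gene (orange1.1t05568) was the reverse, with 1509.5 and 1393 FPKM in *C. grandis* control roots and 0 in *C. sinensis* control roots. Ubiquitin is used by every cell and encoded by many near-identical genes. Whether these entries reflect transcript levels or how reads were assigned to copies was not tested. At 0 in all *C. grandis* libraries were also the 60S ribosomal protein L3 gene Cs3g21570, against 13.7 and 17.99 FPKM in *C. sinensis* control roots, and xyloglucan endotransglycosylase 6 (Cs4g03180), against 18.97 and 22.95 FPKM. By ID class, genes at 0 in *C. grandis* made up 1.79% of placed, 4.72% of unplaced and 10.9% of assembled genes, and those at 0 in *C. sinensis* 0.598%, 2.09% and 6.97%. Among the 15899 genes placed on a chromosome, in ID order, 6 runs of 3 neighbours were at 0 in *C. grandis*. No run of 3 was at 0 in *C. sinensis*.

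The +Al roots, whose 4 libraries were not used in the control comparison, gave a second view of the same species pair. Of the 2934 genes called in control roots, 2733 passed the filter in +Al roots, and 2473 of these (90.5%) differed in the same direction. Called in both conditions and in the same direction were 1791 genes, 61.0% of the calls in control roots and 30.7% of the 5843 calls in +Al roots, where 30.7% of 19011 genes tested were called. Those 1791 comprised 732 higher and 1059 lower in *C. grandis*. Only 54 genes were called in opposite directions in the 2 conditions. The species difference changed between conditions (interaction of species and Al, limma, adjusted p of at most 0.05) at 3552 of 18660 genes and at 707 of the 2934 called in control roots.

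Recurrence was also counted by family. Of the calls in control roots, 13 of 15 in class III peroxidases, 10 of 12 in germin-like proteins, 19 of 29 in phenylpropanoid and lignin enzymes and 26 of 39 in cytochrome P450 enzymes were called the same way in +Al roots. All 5 xylem marker calls recurred as well. Fewer recurred in terpenoid enzymes (4 of 14), subtilases and cysteine or aspartic proteases (7 of 17), metal transport and chelation (5 of 12), abscisic acid and dehydration genes (1 of 6) and ALMT genes (1 of 3). In nitrogen uptake and assimilation the number was 4 of 17, of which 3 were not tested in +Al roots. Whether these shares differed between families was not tested. Nitrate transporters Cs8g16010 and orange1.1t02415 recurred, at log2 2.38 and 2.26 in +Al roots. Ammonium transporter Cs5g30580 did not, with log2 1.65 in control roots and -1.71 in +Al roots (interaction adjusted p = 0.00116, limma). Its +Al levels were low in both species, at 0.845 and 0.443 FPKM in *C. grandis* and 1.84 and 2.72 FPKM in *C. sinensis*. For glutamine synthetase 2 (Cs9g05680) the difference was 1.30 in control roots and -0.05 in +Al roots.

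**Figure D5:**
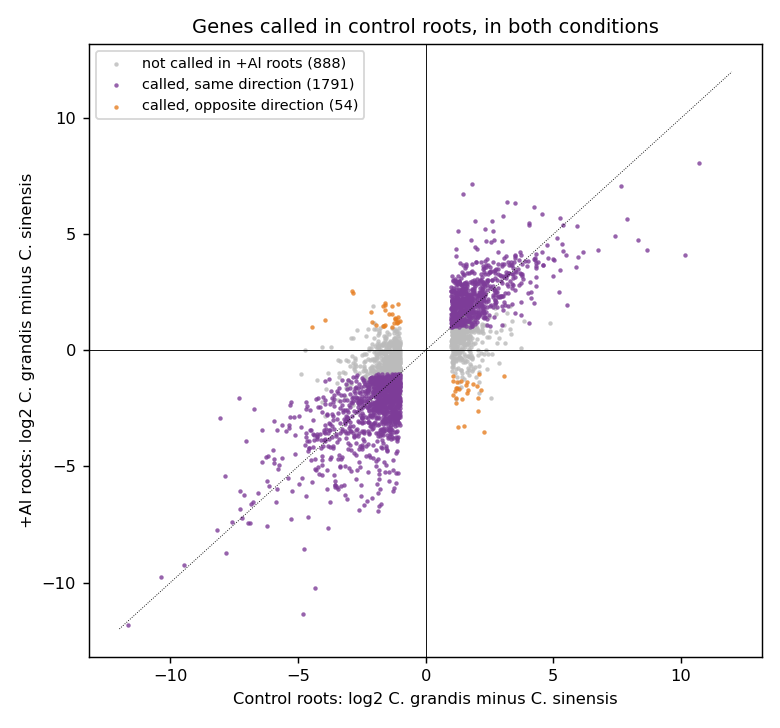
Log2 difference of *C. grandis* minus *C. sinensis* in +Al roots (vertical) against that in control roots (horizontal) for the 2733 genes called in control roots and tested in both, with a dotted line of equality. The 1791 genes called in the same direction lie in the lower left and upper right, and 54 called in opposite directions lie in the other corners.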

How the data were processed

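Poly(A) RNA of pooled root tips was sequenced as paired ends, and 8 libraries in 4 groups were deposited, 4 of them from control roots. The authors filtered reads for adapters, ambiguous bases and poor quality, took out ribosomal reads with Bowtie, mapped both species to the *C. sinensis* genome with TopHat2, assembled transcripts with Cufflinks and deposited FPKM values per library. Their own test was edgeR 3.0.0 under R 2.1.5. Which genome build and which versions of Bowtie, TopHat2 and Cufflinks they ran was not given in the sources used here. The files hold no counts, so gene depth is unknown and no counting error could be computed.

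FPKM were tested with limma 3.58.1 in R 4.3.3 (trend of spread on level, 2 residual degrees of freedom) on log2(FPKM + 0.1), *C. grandis* minus *C. sinensis*, in the 4 control libraries. The pseudocount understates differences of genes near 0. Genes at 0 in both libraries of 1 species were kept out of the test. The interaction of species and Al was fitted on all 8 libraries. Tables were made with Python 3.11.15, pandas 2.3.3, numpy 2.4.6 and scipy 1.17.1, and figures with matplotlib 3.10.9. A simulation used libraries of 18660 genes, of which 50 were changed at each size. In these, the control fit recovered 90, 86, 100 and 100% of changes of log2 1.5, 2, 3 and 5, with 5 false calls. Whether these figures hold for the real control libraries, where 15.7% of genes were called, was not tested.

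The genes and the 50 keyword lists were chosen with earlier results of these data known. The pattern for actins was corrected after matching, since it also took galactinol genes. Named genes are the 10 largest described differences each way with at least 10 FPKM, the up to 4 most abundant called members of each list, the 10 most abundant genes at 0 in each species, the 10 most abundant called genes, and genes of Al handling. Other members named beside these were chosen after their values were seen. Alternatives tried were rescaling, other filters, pseudocounts and fold limits, known genes only, all 8 libraries in 1 fit, each library left out in turn, and a replicate block.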

Additional observations from a re-analysis of the deposited data

Results flagged for a closer look

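The species difference of some genes named above changed by at least 2 on the log2 scale between control and +Al roots (interaction of species and Al in all 8 libraries, limma, adjusted p of at most 0.05). The values below are the difference in control roots minus that in +Al roots. Positive values, where *C. grandis* stood relatively higher in control roots, were 2.99 for the ammonium transporter Cs5g03120 (adjusted p = 0.000371), 3.36 for the ammonium transporter Cs5g30580 (0.00116), 2.30 for the ammonium transporter Cs7g04990 (0.0104) and 3.85 for the ammonium transporter orange1.1t01808 (0.0242). The same held, at 3.63, for the P450 gene orange1.1t02087 (0.000752), at 3.57 for peroxiredoxin-2B-like Cs8g10680 (0.000163), at 4.37 for the sorbitol dehydrogenase-like orange1.1t06022 (0.0109) and at 2.61 for the dioxygenase Cs9g02910 (0.00479). Laccase-17 (Cs8g17630) had 2.09 (0.0023), the pectinesterase Cs4g06650 had 2.43 (0.000528) and the channel Cs9g18180 had 2.51 (0.0144). Negative values were -2.70 for metallothionein Cs1g07330 (0.00259), -3.14 for the ABC-2 transporter Cs2g30650 (0.00187), -2.78 for the ammonium transporter Cs3g10730 (0.0374) and -2.76 for the defensin XLOC_029963 (3.81e-05). The methyltransferases Cs5g25000 and Cs5g25010 had -2.41 (0.0113) and -2.42 (0.000812), and the P450 gene Cs5g06320 had -2.08 (0.0109). In metallothionein Cs1g07330 and the ammonium transporters Cs5g03120 and Cs5g30580 both conditions were called and the directions were opposite. Both transporters were low in the +Al roots of both species. There Cs5g03120 had 0.737 and 0.959 FPKM in *C. grandis* and 2.38 and 2.22 FPKM in *C. sinensis*. Cs5g30580 had 0.845 and 0.443 FPKM in *C. grandis* and 1.84 and 2.72 FPKM in *C. sinensis*.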

How the results depend on the processing

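The alternatives left the counts of 1227 genes higher and 1707 genes lower in *C. grandis* within 1.5 times, with these exceptions. With genes of at least 5 FPKM, 1098 were lower. With a fold limit of log2 2, 396 were higher and 600 lower. Leaving out 1 library gave 1127 to 1330 higher and 1413 to 2144 lower, the last without *C. grandis* library 1. Of the 2934 genes called, 2356 to 2647 were also called with 1 library left out. Rescaling by the median ratio gave 1402 higher and 1562 lower. With at least 5 FPKM in the other species, 203 genes were at 0 in *C. grandis* and 82 in *C. sinensis*, and 103 of the 189 at 0 in *C. sinensis* control roots were at 0 in all 4 of its libraries. Of the 93 genes named in the text or its plots and called, none changed direction, 9 lost the call when 1 library was left out, 4 with rescaling, 9 with a pseudocount of 1 and 51 with the limit of log2 2. Among the 100 counts of list members, 2 moved by more than 1.5 times with the replicate block, 8 with rescaling and 11 to 15 without 1 library. With a pseudocount of 1, 27 of these counts moved, and with genes of at least 5 FPKM 32 did. The limit of log2 2 moved 79 of them. The cause of these shifts was not tested, apart from fewer genes or libraries entering and the stricter limit.

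Replicate numbers were no pairing by the labels, and deviations of same-numbered libraries had r = 0.02 over 18660 genes. With replicate number as a block, 1232 genes were higher and 1717 lower, and 2833 of the 2934 calls remained. Of the named genes, Cs7g04390 and Cs9g18190 lost the call with the block (adjusted p 0.0508 and 0.0601, limma). The FPKM values gave depth only as a ratio between libraries. The paper lists mapped reads per library, but reads per gene were not computed, so the reads behind levels near 0 are unknown.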

Other observations

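Regulatory and hormone genes not described above were also counted. Ethylene synthesis and AP2/ERF factor genes had 9 higher and 11 lower of 68 tested (29.4%, beside 15.7% of all genes), and NAC factors had 3 higher and 4 lower of 23 (30.4%). MYB factors had 8 lower and none higher of 55 (14.5%), and WRKY factors 1 higher and 1 lower of 26 (7.69%). Lipoxygenase and jasmonate enzymes had 4 higher and 1 lower of 18 (27.8%), and genes of gibberellin and cytokinin 4 higher and 4 lower of 43 (18.6%). UDP-glycosyltransferases had 16 higher and 11 lower of 94 (28.7%), and subtilases and cysteine or aspartic proteases 12 higher and 5 lower of 68 (25%). Proteins of transposable elements had 6 lower and none higher of 26 tested (23.1%), and another 6 were at 0 in both *C. grandis* libraries against 1 in both *C. sinensis* libraries.

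Some genes were listed at 0 in 1 library of a pair and high in the other. This was so, with at least 10 FPKM in the other library, for 54 genes in *C. grandis* and 39 in *C. sinensis*. The undescribed gene Cs5g22110 had 4057 and 2583 FPKM in *C. grandis* and 78.7 and 0 FPKM in *C. sinensis*, and the homogentisate phytyltransferase-like gene orange1.1t05726 had 0 and 13305 FPKM in *C. grandis* and 0 in both *C. sinensis* libraries. How such entries arose was not tested.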
